A study of Saccharomyces cerevisiae with 24 samples.

Results

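The comparison described here set the yeast strain labelled dot4 null (UCC6435) against a strain that carries DOT4 with a 6Myc tag (UCC6408). Its 6 arrays, of 24 in the series, were chosen by their titles, which name these 2 strains. The other 18 arrays set strains with the alleles dot4-1 (UCC6406, 6Myc-tagged) and dot4-5 (UCC6407, 6Myc-tagged) and with untagged DOT4 (UCC6432) against the same DOT4-6Myc strain, with 6 arrays each. All strains of Saccharomyces cerevisiae were grown in YEPD, a rich glucose medium, and total RNA was compared in Cy5 and Cy3. The null arrays come in 3 numbered sets of 2 arrays, with the dyes exchanged within a set, so that the null strain is named first in the title of one array and second in that of the other. Because the control carries the tag, the comparison holds the loss of DOT4 and the absence of a tagged protein together. How the null was made, the marker genotypes of the strains, and whether the sets are separate cultures are points that the labels leave out.

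DOT4 is the gene UBP10 (YNL186W) of the reference annotation. It encodes a ubiquitin protease that removes ubiquitin from histone H2B, a mark that promotes methylation of histone H3 by the Set1 and Dot1 enzymes. The name stands for disruptor of telomeric silencing, since changed dosage of the gene weakens the repression that Sir proteins impose on genes beside yeast telomeres, and cells without the protease are known to have changed histone marks at silent and active chromatin.

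All values are log2 ratios of the null strain over DOT4-6Myc, after centring each array on its median. Their direction is likely rather than stated. Taken as the labels assign strains to dyes, all 6 arrays gave more UBP10 signal to the strain labelled null. Every array was therefore turned to have UBP10 lower there, and with the labels' own assignment each sign below is exchanged. With the null strain named first, UBP10 read -4.07, -4.79 and -4.93 in sets 1, 2 and 3. With the null strain named second it read -4.89, -4.18 and -5.30. Its mean of -4.69 ± 0.37 (SD over 3 sets) is 25.8-fold, given with no test because it set the direction. UBP10 lies apart from every other open reading frame (ORF) of these arrays, as the plot of ratios on the 6 arrays shows.

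**Figure D1:**
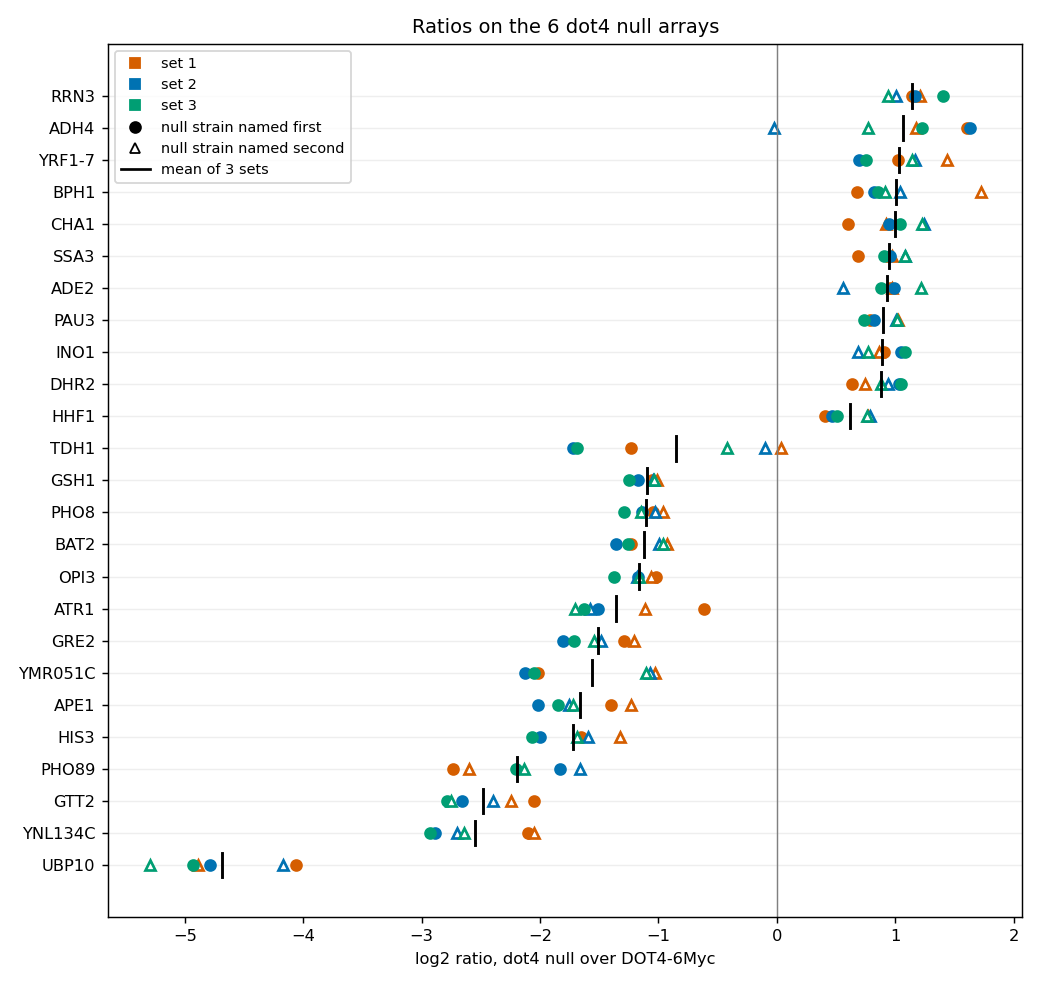
Log2 ratios of 25 ORFs on the 6 dot4 null arrays (horizontal axis), with set 1, 2 or 3 by colour, the order of the strains in the title by symbol and the mean of 3 sets as a bar. UBP10 lies between -5.30 and -4.07 on all arrays, and TDH1 and YMR051C are split by dye order.

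The 5 tested genes beside UBP10 had means between -0.33 and 0.39, with 3 called higher and 1 lower. KAR1, which acts at the spindle pole and in nuclear fusion, read 0.29, 0.34 and 0.49 in sets 1, 2 and 3 (mean 0.37, limma, Benjamini-Hochberg adjusted p = 1.75e-05). SWT21, a splicing gene, rose by 0.39 ± 0.12, yet its arrays with the null strain named second were at 0.06, 0.06 and 0.50 and those with it named first at 0.74, 0.47 and 0.51, and it was at 0.21 in the second order alone. On the other side, MRPL19, a mitochondrial ribosomal protein gene, passed at 0.22 ± 0.16 and did not pass without set 1 (0.13, limma adjusted p = 0.0599), while YNL184C was at 0.09 and did not pass. NPR1, a protein kinase gene of nitrogen control, was called lower, at -0.27, -0.29 and -0.41 in sets 1, 2 and 3 (limma adjusted p = 5.51e-05).

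Across the table, limma called 3928 of 6195 ORFs tested (63.4%), 1904 higher (30.7%) and 2024 lower (32.7%) in the null strain, so a passed test is common here. A change of at least 2-fold was called for 57 ORFs (0.92%), 7 higher and 50 lower. Only 2660 ORFs (42.9%) were both called and of 1 sign on all 6 arrays, and 341 called ORFs had opposite mean signs in the 2 dye orders. Set 1 stood apart. Over about 6198 ORFs the set means correlated at 0.95 between sets 2 and 3, but at 0.77 between sets 1 and 2 and 0.75 between sets 1 and 3, where all points of a set share its arrays. Without set 1, 4136 of 6193 ORFs (66.8%) were called, 32.6% higher and 34.2% lower. The first-named arrays alone called 66% of 6199 ORFs and the second-named arrays alone 56.7%.

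The plot of set 1 beside sets 2 and 3 shows where the sets disagreed most. The 5 ORFs with the largest SD were led by ATG41, an autophagy gene, at 1.00, -0.31 and -0.60 in sets 1, 2 and 3. AQR1, an efflux transporter gene, read 1.37, 0.10 and 0.08, and RSN1 read 0.60, -0.86 and -0.14. In the other direction, MTH1, a repressor in glucose sensing, read -1.37, -0.23 and -0.12, and AFR1, which acts in mating projection, read -1.11, 0.02 and 0.10. None of the 5 passed the limma test over 3 sets. Among ORFs chosen after their values were seen, SLT2, the kinase of the cell wall integrity pathway, read -0.89, 0.28 and 0.10, and its substrate RLM1 read -0.59, 0.24 and 0.13. In dot4-1, set 1 lay on the same side of its sets 2 and 3 for 6 of these 7 genes, with MTH1 at -1.96, -0.35 and -0.40 and SLT2 at -0.82, 0.23 and 0.25. RSN1 was the exception, at -0.61, -0.49 and -0.56 in dot4-1. The part of culture, growth or hybridisation in this was not tested.

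**Figure D2:**
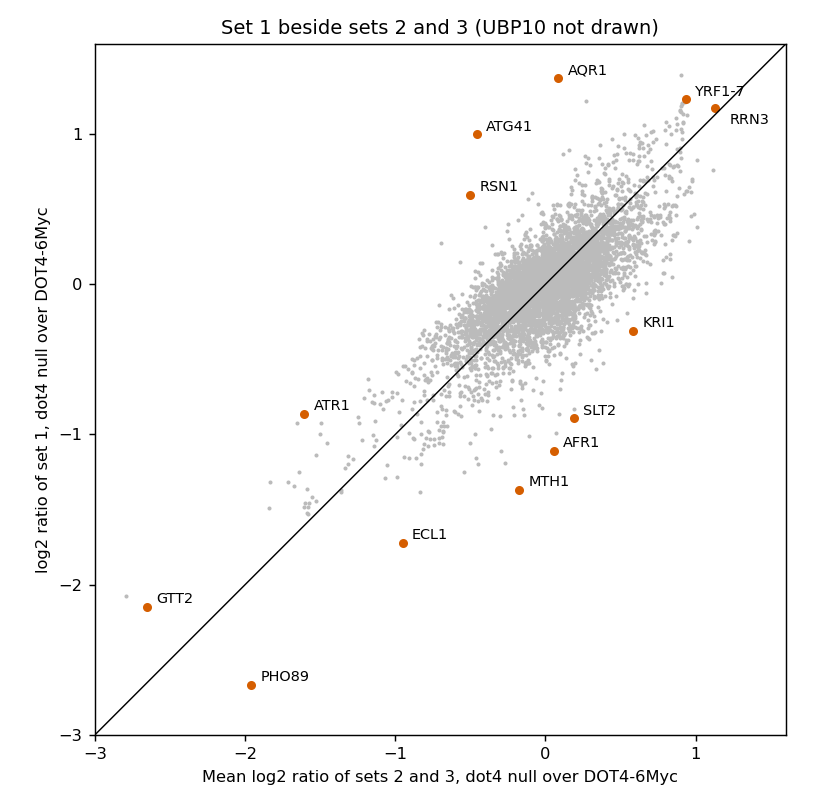
Log2 ratio of set 1 (vertical axis) against the mean of sets 2 and 3 (horizontal axis) for each ORF of the dot4 null arrays, with the line of equal values and 13 named genes in orange. ATG41, AQR1 and RSN1 lie above the line, and KRI1, SLT2, AFR1 and MTH1 lie below it.

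Genes at chromosome ends were higher in the null strain, most of all the outermost ones. By rank from the end, counting protein-coding genes of the reference annotation, the outermost tested gene was called higher at 22 of 27 ends and lower at 1, with a median ratio of 0.85. Some of these genes are near-identical copies of a repeat, described below, so the ends need not be independent of each other. The second gene was higher at 20 of 28 ends and lower at 2 (median 0.32), and the third higher at 17 of 29 and lower at 7 (median 0.24). Among genes 4 and 5, 25 of 59 were higher and 12 lower. From rank 6 to rank 40 the share called higher was 26.8% to 29.5%, below that of all ORFs. Genes 6 to 10 had 42 of 151 higher and 50 lower, with a median of -0.02, and the 4471 genes at rank 41 or beyond had 31.5% in each direction. Whole chromosomes differed little, with medians between -0.10 for chromosome I and 0.04 for chromosome XIV.

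**Figure D3:**
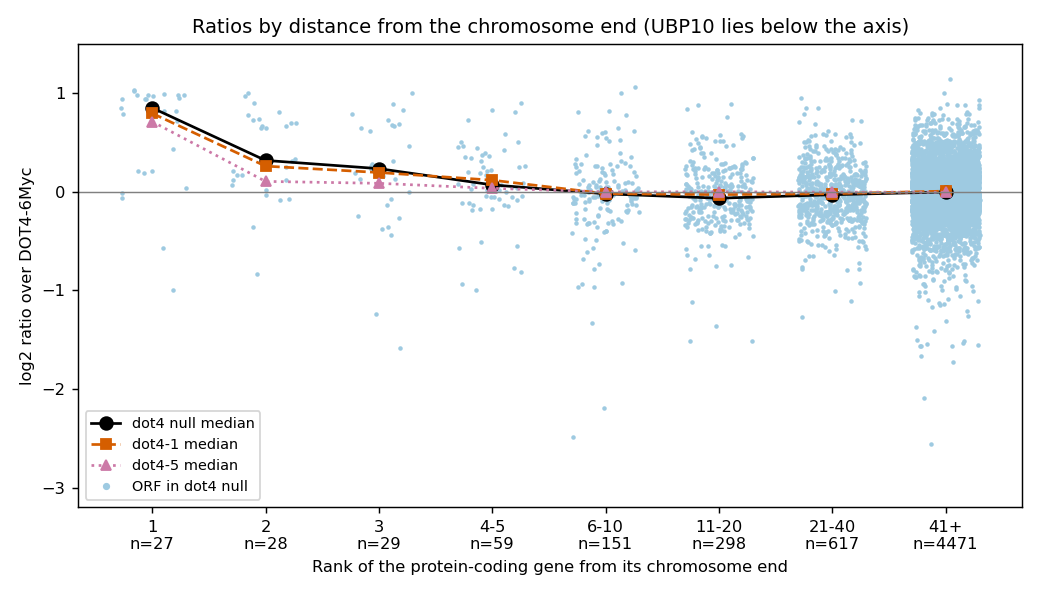
Log2 ratio over DOT4-6Myc (vertical axis) by rank of the gene from its chromosome end (horizontal axis, with the number of genes), as points for the dot4 null strain and as medians for dot4 null, dot4-1 and dot4-5. The null median is 0.85 at the outermost gene and -0.02 at genes 6 to 10.

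The outermost genes include the YRF1 helicases of the Y' elements, repeated blocks that cap many yeast telomeres. All 7 tested were called higher, between 0.94 and 1.04, and their per-set medians were 1.19, 0.89 and 0.93. YRF1-7 read 1.02, 0.69 and 0.75 with the null strain named first and 1.44, 1.17 and 1.14 with it named second (mean 1.04 ± 0.17, limma adjusted p = 5.82e-08). All 6 arrays are above 0, set 1 is the highest set, and the second-named arrays are the higher ones in each set. The unnamed helicase-like ORFs YLL066C, YML133C, YHL050C, YHR219W, YBL113C, YIL177C and YJL225C, which were also called, lay between 0.95 and 1.00 with the same split. Such copies are near-identical, so these values need not be independent of each other, and the labels do not say whether the probes tell them apart.

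The PAU genes encode seripauperins, small cell wall mannoproteins whose genes mostly lie near telomeres and are known to respond to anaerobic growth. Of 23 tested, 19 were called higher and 2 lower, with a median of 0.69 and per-set medians of 0.69, 0.74 and 0.66. PAU3 read 0.79, 0.82 and 0.74 with the null strain named first and 1.02, 1.00 and 1.01 with it named second (mean 0.90 ± 0.0187, limma adjusted p = 3.19e-08). PAU5 was at 0.88 ± 0.0769, PAU21 at 0.84 ± 0.0985 and PAU4 at 0.83 ± 0.0445, with every set above 0.7. Sets 1, 2 and 3 thus lay close together here, unlike the Y' genes.

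Other anaerobic cell wall genes went in either direction. Among the 8 DAN and TIR genes, 2 were called higher and 4 lower (median -0.11), and PAU23, 1 of the 4 at -0.19 ± 0.0994, is counted among the PAU genes as well. TIR4 was the highest at 0.60 ± 0.0795 and TIR2 was at 0.16 ± 0.021, whereas DAN4 was at -0.32 ± 0.15 and TIR1 at -0.23 ± 0.11. The COS genes, a subtelomeric family of membrane proteins, had 8 of 11 members higher and 1 lower, with per-set medians of 0.39, 0.14 and 0.03. In the first dye order alone 2 were called higher and in the second 8. Without set 1 only COS8 was called, the highest over 3 sets at 0.37 ± 0.16. COS12 read 0.96, 1.06 and 1.19 with the null strain named first and -1.93, -2.12 and -2.55 with it named second, a split by dye order with opposite signs.

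Further genes of the ends were called as well, in either direction. Of 294 tested genes among the 10 outermost at each end, 126 were called higher and 72 lower (median 0.05). ADH4, one of the outermost genes of chromosome VII and the gene of an alcohol dehydrogenase, read 1.61, 1.63 and 1.23 with the null strain named first and 1.18, -0.02 and 0.77 with it named second (mean 1.07 ± 0.30, limma adjusted p = 0.000629), and the second order alone gave 0.64. DDI2, a cyanamide hydratase gene, rose by 0.89 ± 0.12 and the thiamine synthesis gene THI12 by 0.60 ± 0.10. Of the DDI, SNZ, SNO and THI genes, 8 of 14 were higher and 1 lower, and their near-identical copies share the limit given for the Y' genes. Conversely GTT2, PHO89, YML131W, HSP31 and SOR2, a sorbitol dehydrogenase gene at -1.24 ± 0.0683, all lie within the 10 outermost genes and fell.

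Genes that make ribosomes were higher. RRN3, the factor that brings RNA polymerase I to the ribosomal DNA, had the largest rise of all ORFs. It read 1.14, 1.17 and 1.40 with the null strain named first and 1.21, 1.00 and 0.94 with it named second (mean 1.14 ± 0.0506, 2.21-fold, limma adjusted p = 4.88e-09). All 6 arrays were at 0.94 or above. Among the other initiation factors, RRN11 rose by 0.52 ± 0.052 and RRN6 by 0.33 ± 0.12, and RRN7 by 0.45 ± 0.31, which is 0.27 without set 1. RRN5 was at 0.01, with 0.30, -0.17 and -0.12 in sets 1, 2 and 3, and at -0.14 without set 1 (limma adjusted p = 0.00688). In all 6 of 8 initiation factors were called higher and none lower, a count that was 4 in the second dye order alone and 3 with arrays scaled to a common spread. All 7 subunits of RNA polymerase I tested were called higher, with RPA43 at 0.69 ± 0.24 and RPA34 at 0.66 ± 0.21 leading and RPA14 lowest at 0.18.

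The assembly factors of both subunits followed. Of 60 genes of the small-subunit processome, which cuts and folds the 18S precursor, 57 were called higher and 0 lower, with a median of 0.51 and per-set medians of 0.34, 0.58 and 0.61. DHR2, an RNA helicase gene, read 0.64, 1.04 and 1.05 with the null strain named first and 0.74, 0.94 and 0.88 with it named second (mean 0.88 ± 0.16, limma adjusted p = 2.42e-07). KRR1 was at 0.47, 0.98 and 1.00 in sets 1, 2 and 3, and FAF1 at 0.29, 0.94 and 0.97. Of 62 genes of large-subunit assembly, 58 were called higher and 1 lower (median 0.51), with per-set medians of 0.27, 0.59 and 0.64. MAK16 was at 0.85 ± 0.18 and REI1 at 0.85 ± 0.0961. Set 1 was thus the lowest set, below the mean of sets 2 and 3 in 49 of 60 processome genes and 56 of 62 large-subunit genes. KRI1, a processome gene chosen after its values were seen, was at -0.31, 0.55 and 0.61.

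Genes for RNA polymerase III and for RNA modification were mostly higher. Of 32 genes for RNA polymerase III, tRNA modification and nucleolar RNA, 25 were called higher and 2 lower (median 0.30), with the polymerase subunit genes RPC34 at 0.62 ± 0.23, RPC53 at 0.60 ± 0.23 and RPC82 at 0.55 ± 0.16. Among 36 translation factors, 18 were higher and 4 lower, led by the initiation factor gene TIF11 at 0.53 ± 0.12. These calls depended on the dye order, with 14 higher and 12 lower in the first (median 0.06) and 31 higher and 0 lower in the second (median 0.26).

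Genes for the ribosomal proteins themselves gave no common direction. Of 56 small-subunit genes, 8 were called higher and 25 lower (median -0.07), and of 82 large-subunit genes 23 were higher and 36 lower (median -0.08). Their calls turned with the dye order. With the null strain named first, 0 small-subunit genes were called higher and 47 lower (median -0.33), where 33.3% of all ORFs were higher and 32.7% lower. With it named second, 31 were higher and 3 lower (median 0.19), where 28.4% of all ORFs were higher and 28.3% lower. RPS13 shows the split, at -0.75, -0.72 and -0.87 with the null strain named first and at -0.05, -0.12 and -0.12 with it named second. RPS22B kept 1 sign on all arrays at -0.71 ± 0.14 (limma adjusted p = 5.2e-07), as did RPL22B at -0.58 ± 0.17. Among 69 mitochondrial ribosomal protein genes, 19 were called higher and 7 lower, shares below those of all ORFs, and the second dye order alone gave 16 higher and 15 lower.

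**Figure D4:**
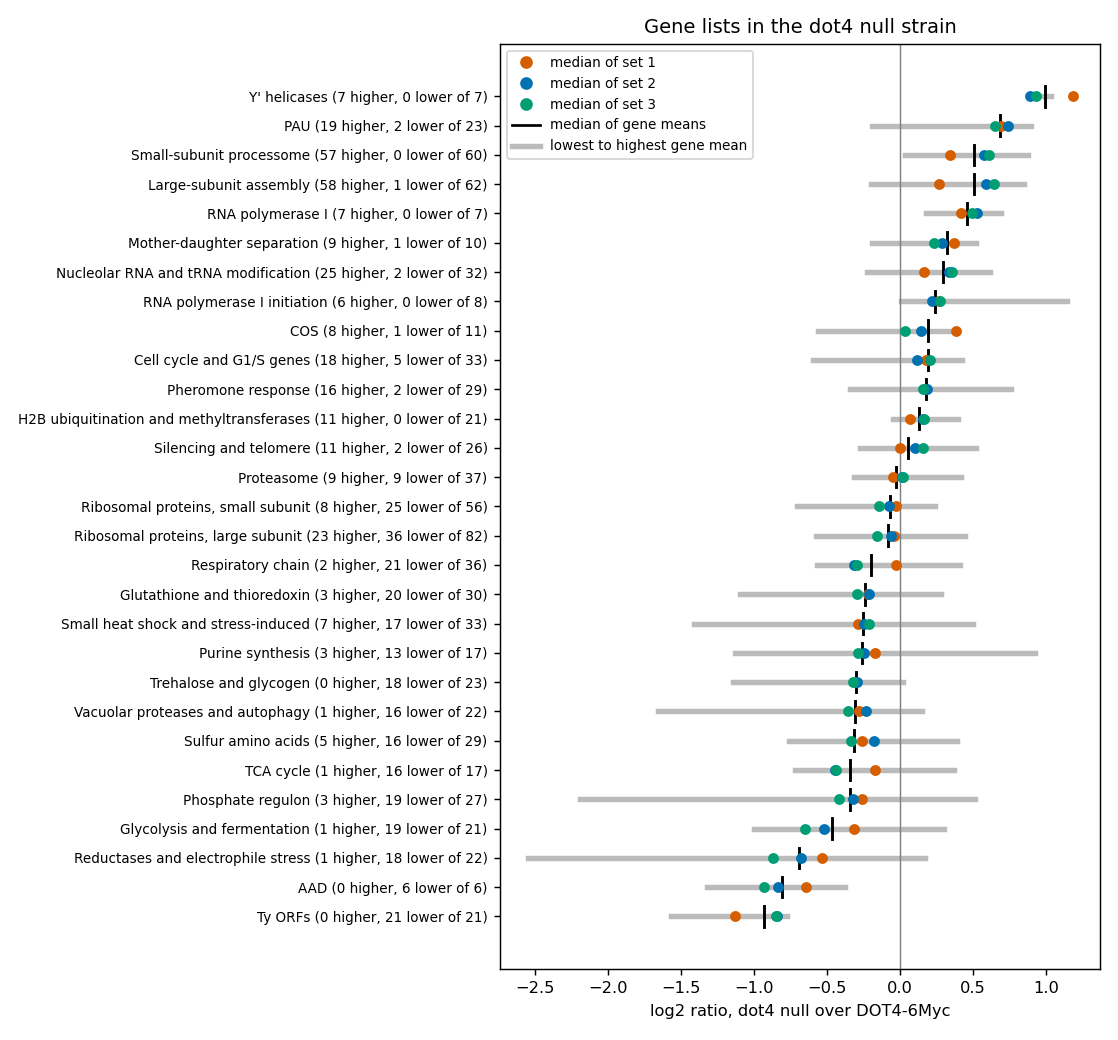
Log2 ratio of dot4 null over DOT4-6Myc (horizontal axis) for 29 gene lists: the median of gene means as a bar, the median in each set as a point and the range of gene means in grey, with counts called by limma. The median is 1.00 for Y' helicases, 0.51 for both assembly lists and -0.93 for Ty ORFs.

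Genes against reactive aldehydes and electrophiles were lower and gave the largest falls after UBP10. YNL134C, an aldehyde reductase gene, read -2.10, -2.89 and -2.93 with the null strain named first and -2.05, -2.70 and -2.64 with it named second (mean -2.55 ± 0.41, 5.87-fold, limma adjusted p = 4.14e-08). GTT2, a glutathione transferase gene, read -2.05, -2.66 and -2.79 in the first order and -2.24, -2.40 and -2.76 in the second (mean -2.48 ± 0.32, 5.59-fold, limma adjusted p = 2.03e-08). No array of either gene was above -2.05, and set 1 was nearest to 0 in both. Of 22 genes of this list, 18 were called lower and 1 higher, with a median of -0.69 and per-set medians of -0.54, -0.68 and -0.87. GRE2, a methylglyoxal reductase gene, was at -1.51 ± 0.23, the dehydrogenase-like YML131W at -1.58 ± 0.27, and the drug efflux gene ATR1 at -0.86, -1.54 and -1.66 in sets 1, 2 and 3. YOL150C, an ORF beside GRE2, was at -1.40 ± 0.23.

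Related redox genes followed in part. All 6 AAD genes tested, which encode putative aryl-alcohol dehydrogenases, were called lower, AAD6 at -1.32 ± 0.26 and AAD4 at -0.92 ± 0.18. The sixth, YPL088W, was at -0.83, -0.11 and -0.18 in sets 1, 2 and 3 and did not pass without set 1 (-0.15, limma adjusted p = 0.367). Of 30 glutathione and thioredoxin genes, 20 were lower and 3 higher (median -0.24). GSH1, which makes the first enzyme of glutathione synthesis, was lowest at -1.10 ± 0.0573, with 6 arrays between -1.25 and -1.01. TRX2, TSA2, SOD2 and ZWF1, genes of the thioredoxin, peroxiredoxin, superoxide and NADPH steps, were at -0.63 to -0.54, with TRX2 at -0.34 in the second order alone.

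Ty elements are retrotransposons with many near-identical copies. All 21 of their ORFs tested were called lower, between -1.57 and -0.78 with a median of -0.93. YMR051C read -2.02, -2.12 and -2.05 with the null strain named first and -1.03, -1.07 and -1.11 with it named second (mean -1.57 ± 0.0396, limma adjusted p = 7.29e-08). The sets of YMR051C hardly differed while its dye orders did. Over the list the per-set medians were -1.13, -0.85 and -0.85. The list median was -1.55 in the first order and -0.41 in the second, in which 17 of 21 were called. PTI1, a gene of mRNA 3′ end formation, had the same split at -1.79, -1.74 and -1.67 against -0.95, -0.86 and -1.18. Signals of near-identical copies cannot be told apart here either.

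Genes of sugar breakdown were called lower over both dye orders together, while the fall of the list as a whole rested on the first order. Of 21 genes of glycolysis and fermentation, 19 were called lower and 1 higher, with per-set medians of -0.31, -0.52 and -0.65. The glucokinase gene GLK1 read -1.02, -1.32 and -1.25 with the null strain named first and -0.58, -0.98 and -0.87 with it named second (a mean fall of 1.00 ± 0.18, limma adjusted p = 1.01e-07). HXK1, a hexokinase gene, also fell by 1.00, and PYK2, the minor pyruvate kinase gene, was at -0.78 ± 0.0779. The abundant enzymes of the lower pathway depended on the dye order. TDH1 read -1.23, -1.73 and -1.69 in the first order and 0.04, -0.10 and -0.42 in the second, and PGK1 and ENO1 were split the same way. Over the list 20 genes were called lower and 1 higher in the first order (median -1.07), against 5 lower and 4 higher in the second (median -0.08), where 28.3% of all ORFs were lower.

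Reserve carbohydrate genes were lower in both dye orders, 16 in the first and 18 in the second. Of 23 genes of trehalose and glycogen, 18 were called lower and 0 higher (median -0.30). PGM2, which makes the phosphoglucomutase that feeds both, was at -1.14 ± 0.17, the glycogen phosphorylase gene GPH1 at -1.06 ± 0.17 and the branching enzyme gene GLC3 at -1.02 ± 0.32. GSY1, a glycogen synthase gene, was at -1.20, -0.52 and -0.38 in sets 1, 2 and 3 and at -0.45 without set 1. For the 19 hexose transporters, 5 were higher and 5 lower, with HXT4 at -0.57 ± 0.15 and HXT16 at 0.42 ± 0.16.

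In mitochondria, 16 of 17 TCA cycle genes were called lower and 1 higher (median -0.34), and 21 of 36 respiratory chain genes lower and 2 higher (median -0.20). CIT1, the citrate synthase gene, was at -0.48, -0.82 and -0.86 in sets 1, 2 and 3 (limma adjusted p = 1.79e-06), SDH2 at -0.34, -0.86 and -0.77, and COX4 at -0.25, -0.74 and -0.72. Set 1 was again nearest to 0, with a median of -0.03 for the respiratory chain against -0.32 and -0.30 in sets 2 and 3.

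Stress-induced genes were more often lower than higher. Of 33 small heat shock and stress-induced genes, 17 were called lower and 7 higher (median -0.25). YGP1, a cell wall glycoprotein gene, was at -0.93, -1.77 and -1.54 in the 3 sets, HSP31 at -1.33 ± 0.29 and DDR48 at -0.84 ± 0.10, beside YMR173W-A, which overlaps it, at -1.37 ± 0.12. The chaperones of the HSP70 and HSP90 systems had 12 of 29 higher and 13 lower, and their calls turned with the dye order, with 8 higher and 15 lower in the first (median -0.14) and 17 higher and 7 lower in the second (median 0.22). SSA3, a heat-inducible HSP70 gene, read 0.68, 0.96 and 0.91 with the null strain named first and 0.97, 1.09 and 1.08 with it named second (mean 0.95 ± 0.10, limma adjusted p = 3.46e-08). SSB2, the HSP70 of translating ribosomes, rose by 0.68 ± 0.14, whereas the mitochondrial chaperonin gene HSP60 was at -0.51 ± 0.17 and SSE2 at -0.53 ± 0.10.

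The phosphate regulon, the genes that yeast induces when phosphate is short, was lower. Of 27 genes, 19 were called lower and 3 higher (median -0.34). PHO89, the sodium-phosphate transporter gene, read -2.73, -1.83 and -2.20 with the null strain named first and -2.60, -1.67 and -2.14 with it named second (mean -2.19 ± 0.46, 4.58-fold, limma adjusted p = 2.01e-06). Here set 1 was the lowest set. PHO8, the vacuolar alkaline phosphatase gene, was at -1.10 ± 0.11, the acid phosphatase genes PHO11 and PHO12 fell by 1.00 and 0.93, and SPL2, which acts in phosphate transporter control, fell by 1.00 ± 0.20. For metals there was no shared direction. ZRT1, the high-affinity zinc transporter gene, rose by 0.81 ± 0.25 and IZH4 was at -0.72 ± 0.17, in a zinc list of 4 higher and 6 lower of 16, and the iron list had 7 higher and 8 lower of 21.

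Vacuolar hydrolases were lower. APE1, the vacuolar aminopeptidase gene, read -1.40, -2.02 and -1.85 with the null strain named first and -1.23, -1.75 and -1.72 with it named second (mean -1.66 ± 0.30, limma adjusted p = 1.41e-07). CPS1, a carboxypeptidase gene, was at -0.96 ± 0.24, APE2 at -0.67 ± 0.0861 and the autophagy gene ATG8 at -0.50 ± 0.0115. Of 22 genes of vacuolar proteases and autophagy, 16 were lower and 1 higher (median -0.31).

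Amino acid and nucleotide pathways moved gene by gene. BAT2, the cytosolic branched-chain aminotransferase gene, was at -1.12 ± 0.0487 with 6 arrays between -1.36 and -0.93, ARG1 at -0.90 ± 0.18, and HIS4 at -0.76 ± 0.25. CHA1, the serine and threonine deaminase gene, read 0.60, 0.95 and 1.04 with the null strain named first and 0.92, 1.25 and 1.23 with it named second (mean 1.00 ± 0.21, limma adjusted p = 2.44e-07), and SER3, of serine synthesis, rose by 0.79 ± 0.10. Of 29 sulfur amino acid genes, 16 were called lower and 5 higher (median -0.31), MET6 at -0.76 ± 0.20 and SAM2 at -0.60 ± 0.14 among them. In purine synthesis 13 of 17 genes were lower and 3 higher (median -0.26). ADE17 was at -1.13 ± 0.21 and ADE3 at -0.62 ± 0.13, while ADE2, also among the strain markers described below, rose by 0.93 ± 0.14. Pyrimidine genes had 6 higher and 3 lower of 12.

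Lipid synthesis showed opposite changes within 1 regulated set. INO1, the inositol synthesis gene, read 0.91, 1.05 and 1.08 with the null strain named first and 0.86, 0.69 and 0.77 with it named second (mean 0.89 ± 0.0288, limma adjusted p = 3.52e-08). OPI3, whose enzyme carries out the last methylations of phosphatidylcholine synthesis, was at -1.16 ± 0.12 with 6 arrays between -1.38 and -1.02. CHO2, of the preceding step, was at -0.73 ± 0.10. Of 19 inositol and phospholipid genes, 12 were lower and 4 higher. Ergosterol genes had 9 lower and 3 higher of 25 (median -0.03), with 15 lower and 2 higher in the first dye order and 4 lower and 6 higher in the second.

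Of 8 genes of common strain markers, 3 were called higher and 3 lower (median -0.08), where 30.7% of all ORFs were higher and 32.7% lower. ADE2, given above with purine synthesis, was the highest at 0.93. HIS3, the lowest, read -1.65, -2.00 and -2.07 with the null strain named first and -1.32, -1.59 and -1.69 with it named second (mean -1.72 ± 0.21, limma adjusted p = 1.15e-08). YOR203W, which overlaps HIS3, was at -1.56 ± 0.21, while the genes on either side of HIS3, MRM1 at 0.06 and DED1 at 0.01, did not pass. LEU2 was at -0.93 ± 0.16 with arrays between -1.08 and -0.70. URA3 passed at 0.60 ± 0.22 but lay at 0.45, -0.47 and 0.40 on the second-named arrays, and it did not pass without set 1 (0.54, limma adjusted p = 0.0743) or without set 3 (0.54, limma adjusted p = 0.0979). TRP1 was at -0.18 and was lost without set 3 (-0.13, limma adjusted p = 0.0596), and LYS2 and CAN1 did not pass. The part of marker genotypes in these values was not tested.

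Chromatin genes, the nearest to the known role of UBP10, were called higher more often than lower, with small medians. Over all ORFs 30.7% were called higher and 32.7% lower. Of 26 genes of silencing and telomeres, 11 were called higher and 2 lower (median 0.06), with 13 higher and 1 lower in the first dye order and 7 higher and 4 lower in the second. In the second order 28.4% of all ORFs were higher and 28.3% lower. RAP1, whose protein binds telomeric repeats and ribosomal protein promoters, was at 0.63, 0.43 and 0.51 in sets 1, 2 and 3 (limma adjusted p = 5.96e-06), HST3, a Sir2-related deacetylase gene, at 0.84, 0.27 and 0.44, and YKU80, of the Ku end-binding complex, which did not pass in the first dye order alone (-0.11, limma adjusted p = 0.0562), at -0.27 ± 0.024. For H2B ubiquitination and the methyltransferases that depend on it, 11 of 21 were higher and 0 lower (median 0.13), and 4 were higher with arrays scaled to a common spread. That scaling called 1430 of all 6195 ORFs higher. BRE1, the ubiquitin ligase gene for H2B, was at 0.11, 0.54 and 0.54, DOT1, the H3 lysine 79 methyltransferase gene, at 0.19, 0.42 and 0.40, and CDC73, of the Paf1 complex, at 0.28 ± 0.074. Among 17 other ubiquitin protease genes, 6 were higher and 7 lower (3 higher without set 2 or set 3), OTU1 being lowest at -0.55 ± 0.11 and UBP1 highest at 0.38 ± 0.23.

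Histone genes divided by the core histone they encode. The H4 genes HHF1 and HHF2 rose by 0.62 ± 0.0248 and 0.60 ± 0.0842, with arrays between 0.41 and 0.88, and the H3 genes HHT1 and HHT2 by 0.39 each. HHT2 was at -0.08, -0.05 and 0.03 with the null strain named first. The genes for H2A and H2B, HTA1, HTA2, HTB1 and HTB2, had means between -0.15 and -0.09, and each was at -0.27 or below on all first-named arrays and at 0.11 or above on all second-named arrays. The H2A and H2B genes thus had no common sign over the 2 dye orders.

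Of 7 a-specific genes, which mark 1 haploid mating type, 2 were called higher and 0 lower, and of 8 alpha-specific genes 1 was higher and 2 lower, with means between -0.19 and 0.38. Over all ORFs 30.7% were called higher and 32.7% lower, and neither list exceeds these shares. In the first dye order 0 a-specific and 3 alpha-specific genes were called higher, where 33.3% of all ORFs were. In the second the counts were 4 and 1, where 28.4% of all ORFs were higher. STE2, the alpha-factor receptor gene, was at 0.73, 0.19 and 0.23 in sets 1, 2 and 3 and did not pass without set 1 (0.21, limma adjusted p = 0.0838). SST2, which ends pheromone signalling, rose by 0.76 ± 0.12, and the fusion gene PRM1 by 0.72 ± 0.17, in a pheromone list of 16 higher and 2 lower of 29 (median 0.18). Of 15 meiosis-specific genes, used as markers of sporulating cells, 4 were higher and 2 lower, shares below those of all ORFs, and none was beyond 0.39. The first dye order gave 12 higher and 0 lower and the second 2 higher and 7 lower. Ratios give no level, so the presence of such cells cannot be read from them.

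Cell cycle genes rose more often than they fell, with 18 of 33 called higher and 5 lower (median 0.19). The cyclin genes split, with G1 cyclins CLN1 at -0.59 ± 0.21 and CLN2 at -0.39 ± 0.13, and mitotic cyclins CLB4 and CLB3 at 0.43 ± 0.13 and 0.39 ± 0.0667. RNR1, of the ribonucleotide reductase, was at 0.89, 0.17 and 0.14 and was lost without set 1 (0.15, limma adjusted p = 0.345). Daughter cell separation genes had 9 of 10 higher and 1 lower (median 0.32), with DSE4 at 0.52 ± 0.22 and SCW11 at 0.49 ± 0.0476. The lower one, ASH1, was at -0.39, -0.06 and -0.12 and did not pass without set 1 (-0.09, limma adjusted p = 0.179). The separation list depended on the dye order, with 6 higher and 1 lower in the first (median 0.14) and 9 higher and 0 lower in the second (median 0.40).

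The difference between the null strain and the allele dot4-1, tested in the same limma fit through their shared DOT4-6Myc control, was called for 608 of 6195 ORFs (9.81%), 309 higher (4.99%) and 299 lower (4.83%) in the null strain. The number called was not stable: it was 37 after scaling the arrays to equal spread, 242 with no centring, 339 in the first dye order alone, 373 without null set 2 and 1130 without null set 3. It was 865 with only the 2 strains fitted and set number as a block, a setting chosen after seeing the data. Against DOT4-6Myc itself, dot4-1 had 4545 ORFs called (73.4%), 35.9% higher and 37.5% lower. HSP30, a plasma membrane heat shock gene, was at 0.39, 0.34 and 0.08 in the null sets and at -1.56, -1.89 and -1.62 in the dot4-1 sets (difference 1.96, adjusted p = 5.82e-07). SPI1, a cell wall gene, was at 0.08, -0.42 and -0.48 in the null strain and at -1.76, -2.30 and -2.12 in dot4-1 (difference 1.79). URA1, of pyrimidine synthesis, was at 0.24 ± 0.047 in the null strain and at -1.01 ± 0.0526 in dot4-1. Sets of the 2 strains did not overlap in any of these, which follows from picking them for large differences. HIS3 was lower in both strains, at -1.72 in the null strain and -2.83 in dot4-1 (difference 1.11, limma adjusted p = 6.81e-05).

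In the other direction URA3 was at 0.72, 0.35 and 0.73 in the null sets and at 3.83, 3.98 and 4.31 in the dot4-1 sets (difference -3.44, limma adjusted p = 3.15e-05). ADH4 was at 1.39, 0.81 and 1.00 in the null sets and at 4.47, 4.48 and 4.50 in dot4-1 (difference -3.42). GAL11, a Mediator subunit gene, was at -1.69 and -2.49 in null sets 1 and 3, with no value in set 2, and at -0.53, -1.16 and -0.74 in dot4-1, and its difference of -1.28 was lost with the second-named arrays alone (-0.57, limma adjusted p = 0.319). ADR1, the activator of glucose-repressed genes, was at -0.76 ± 0.0892 in the null strain and -0.13 ± 0.0337 in dot4-1. KDX1, a kinase gene, fell by 1.00, 0.50 and 0.43 in the null sets and was at -0.37, 0.15 and 0.14 in dot4-1, and its difference was lost without null set 1 (-0.45, limma adjusted p = 0.052).

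**Figure D5:**
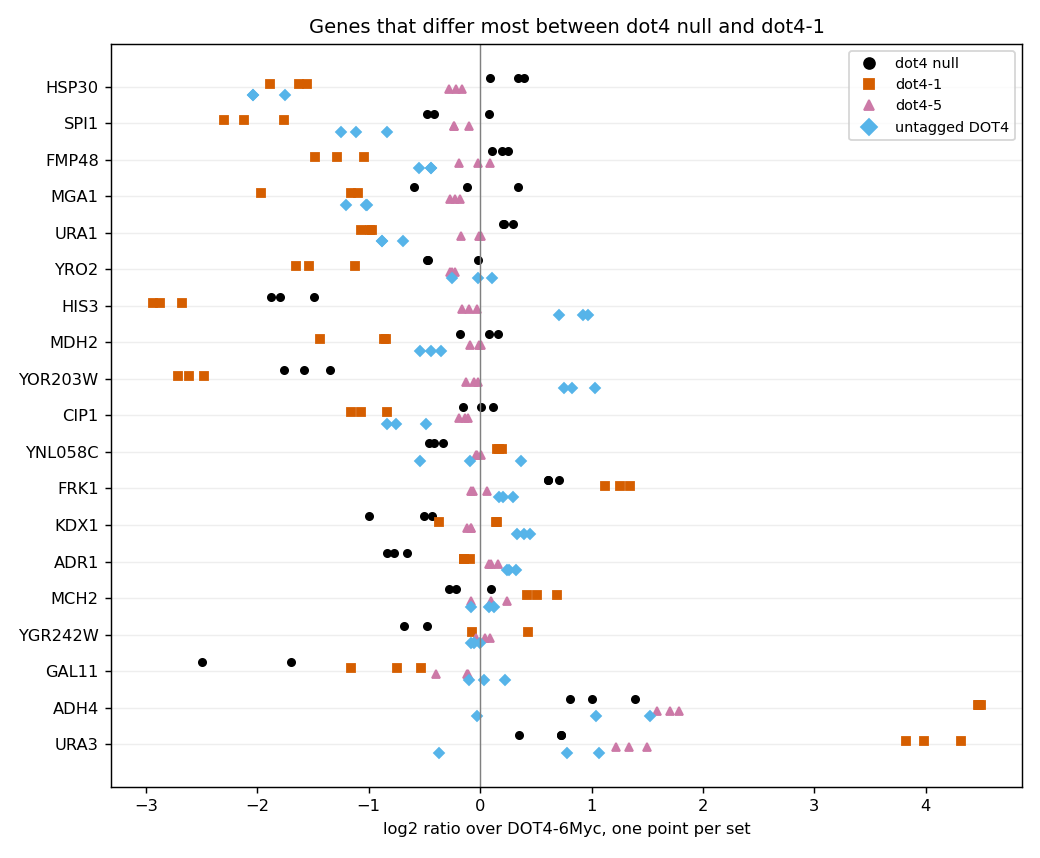
Log2 ratios over DOT4-6Myc (horizontal axis) in each set of dot4 null, dot4-1, dot4-5 and untagged DOT4 for the 19 ORFs other than UBP10 that differed most between dot4 null and dot4-1. URA3 and ADH4 lie at 3.83 or above in dot4-1 alone, and HSP30 at -1.56 or below in dot4-1 and untagged DOT4.

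By list and in the fit that called 608 ORFs (9.81%), no Y' helicase, COS, RNA polymerase I, purine synthesis or proteasome gene tested was called different between the null strain and dot4-1. At that share over all ORFs, short lists are likely to hold few calls or none. Of the 60 processome genes 3 were higher and 2 lower, and of the 23 PAU genes 1 was higher. The stress-induced list had 11 of 33 higher in the null strain and 2 lower, with medians of -0.25 in the null strain and -0.59 in dot4-1. Ribosomal protein genes had 10 of 56 and 14 of 82 higher and none lower, and daughter separation genes 6 of 10 higher and none lower. Cell cycle genes had 10 of 33 lower and none higher, and AAD genes 4 of 6 lower. With arrays scaled, 2 stress-induced genes were higher and 1 lower, 2 AAD genes were lower, and 0 ribosomal protein, daughter separation or cell cycle genes were called. Without null set 2 the ribosomal protein counts were 1 and 2 higher, and without null set 3 they were 21 and 28. With only dot4 null and dot4-1 fitted and set number as a block, 1 Y' helicase, 1 RNA polymerase I and 3 purine genes were higher. Proteasome genes had 1 higher and 1 lower in that fit, and COS genes 0 called. Stress-induced genes had 19 of 33 higher and 2 lower, and glycolysis genes 12 of 21 higher, against 3 without the block. A p that misses the threshold does not show that 2 strains are alike.

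Against dot4-5, 2941 ORFs (47.5%) differed, 1442 higher and 1499 lower in the null strain, and dot4-5 itself had 64 ORFs called against DOT4-6Myc (1.03%). RRN3 was at 1.18, 1.09 and 1.17 in the null sets and at 0.00, 0.04 and 0.04 in the dot4-5 sets (difference 1.12, limma adjusted p = 2.52e-07). YNL134C was at -2.55 in the null strain and -0.43 in dot4-5, GTT2 at -2.48 and -0.43, and PHO89 at -2.19 and -0.28. Of 294 genes among the 10 outermost at each end, 62 were higher and 60 lower in the null strain than in dot4-5. Over all ORFs 23.3% were higher and 24.2% lower, so these counts are near the common share. Gene families of the ends were not alike in this. None of the 7 Y' helicases and none of the 11 COS genes was called different, with medians of 1.00 in the null strain and 0.85 in dot4-5 for the Y' genes and of 0.19 and 0.23 for the COS genes. The PAU genes had 19 of 23 higher in the null strain and 2 lower, with medians of 0.69 in the null strain and 0.09 in dot4-5, and the processome list 56 of 60 higher. ADE17 was at -1.13 ± 0.21 in the null strain and 0.40 ± 0.13 in dot4-5 (difference -1.53, limma adjusted p = 2.3e-05), and BPH1, a BEACH-domain protein gene, at 1.00 ± 0.17 and -0.19 ± 0.14, with 1 null array at 1.72 and 5 between 0.68 and 1.04.

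Against untagged DOT4, 3401 ORFs (54.9%) differed, 1719 higher and 1682 lower. Of these, 512 were called higher in the null strain and lower in untagged DOT4, each against DOT4-6Myc, and 411 the other way. YGP1 was at -0.93, -1.77 and -1.54 in the null sets and at 1.36, 1.08 and 1.41 in the untagged sets (difference -2.69, limma adjusted p = 3.91e-07). HXK1 fell by 1.00 ± 0.33 in the null strain and was at 1.28 ± 0.14 in untagged DOT4, ZRT1 at 0.81 ± 0.25 and -1.08 ± 0.0888, and ADE2 at 0.93 ± 0.14 and -0.61 ± 0.23. By list, 59 of 60 processome genes, 60 of 62 large-subunit genes and all 7 Y' helicases were higher in the null strain, with medians of 0.51, 0.51 and 1.00 in the null strain and of -0.30, -0.32 and 0.08 in untagged DOT4. The untagged and tagged DOT4 strains thus differ from each other, with 1599 ORFs called (25.8%), and a null ratio holds for the tagged control.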

How the data were processed

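The authors deposited 1 log2 ratio per ORF and array; the base follows from the values, and array medians between -0.046 and 0.149 for the null arrays show that they were not centred. For background correction and normalization by the authors, no step is named by the labels or file headers. Of 148920 cells 83 were empty, 26 of them on the null arrays. Signal intensities were not used here, so precision is limited by the number of arrays. Medians were subtracted per array, signs on all 24 arrays were turned by the 1 rule of dye order that put UBP10 lower in the null strain, and the dye-exchanged pair of each set was averaged. The 12 set means of 4 strains were fitted together with limma 3.58.1 in R 4.3.3 (lmFit, eBayes, 8 residual degrees of freedom), with Benjamini-Hochberg adjustment over 6195 ORFs with at least 2 of 3 sets per strain and a threshold of 0.05. The other strains were compared with the null strain as contrasts through the shared control. Tables and plots used Python 3.11.15, pandas 2.3.3 and matplotlib 3.10.9. On simulated data for the null comparison with 6176 genes, 83% of changes of 0.3 and 100% of changes of 0.6 were recovered, with 13 false among 196 calls. The simulation changed few genes and drew independent noise, with the same spread per gene in every strain. The real arrays differ in these points, so it does not give the error rate of the calls reported here.

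Names and gene order came from the RefSeq annotation R64, which matched 5705 of 6205 ORFs. Of 498 tested ORFs without a match, 104 were called higher and 199 lower. The genes named are UBP10 and 2 genes on each side, the 25 largest rises and falls of 1 sign on 6 arrays, all members of lists of 12 or fewer and up to 6 of longer lists, the 10 largest differences each way from each other strain, and the 5 largest SDs and dye components. Members and lists were chosen with earlier results of these data known. Labels do not say whether sets are separate cultures, so p-values cover the spread between sets alone, and this spread may be technical. In the reported fit it was pooled per ORF over the sets of all strains. The SD printed beside a mean is that of the strain's own sets, so an SD and its p refer to different spreads. Whether the strains share a common spread between sets was not tested. With the null sets alone, which also leaves fewer degrees of freedom, 2749 ORFs were called instead of 3928. The set numbers were checked as pairs: deviations of same-numbered sets correlated at 0.67, 0.51 and 0.32 between dot4 null and dot4-1, at -0.24, -0.07 and 0.01 for dot4-5 and at 0.14, 0.28 and -0.30 for untagged DOT4. Only dot4 null and dot4-1 thus look paired, from the data and not from the labels. Deviations of differently numbered sets were not compared, and the reported contrasts did not use the pairing. Arrays of 1 orientation correlated at 0.56 to 0.90 between dot4 null and dot4-1, at 0.17 to 0.49 for dot4-5 and at -0.23 to 0.17 for untagged DOT4. Alternatives were other centring, scaling, each dye order, separate arrays, null sets alone, the replicate block and leaving out each set.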

Additional observations from a re-analysis of the deposited data

Results flagged for a closer look

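Differences between the effect in dot4 null and that in another strain, both over the shared DOT4-6Myc control, were tested as limma contrasts, and those past the threshold are given here as log2 differences, dot4 null minus the other strain. UBP10, which set the direction, differed by -4.07 from dot4-1, -4.45 from dot4-5 and -4.52 from untagged DOT4, as a description. Groups of 3 sets are too small for a search for outlying sets.

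Against dot4-1, 608 ORFs differed. The largest positive differences were 1.96 for HSP30, 1.79 for SPI1, 1.45 for FMP48, 1.29 for MGA1, 1.25 for URA1, 1.12 for YRO2, 1.11 for HIS3, 1.07 for MDH2, 1.04 for YOR203W and 1.01 for CIP1. After UBP10 the largest negative ones were -3.44 for URA3, -3.42 for ADH4, -1.28 for GAL11, -0.76 for YGR242W, -0.67 for MCH2, -0.63 for ADR1, -0.62 for KDX1, -0.60 for FRK1 and -0.58 for YNL058C. YNL058C lost its call without set 1, 2 or 3 of the null strain, at -0.61, -0.57 and -0.55.

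Against dot4-5, 2941 ORFs differed. The largest positive differences were 1.20 for BPH1, 1.12 for RRN3, 1.08 for CHA1, 1.05 for TDA6, 1.03 for INO1, 1.00 for SSA3, 0.98 for COM2, 0.97 for THI4, 0.90 for MAK16 and 0.88 for PAU5. The negative ones were -2.12 for YNL134C, -2.05 for GTT2, -1.92 for PHO89, -1.89 for GAL11, -1.62 for HIS3, -1.53 for APE1, -1.53 for ADE17, -1.50 for YOR203W and -1.39 for YJR028W.

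Against untagged DOT4, 3401 ORFs differed. The largest positive differences were 2.21 for HSP30, 1.89 for ZRT1, 1.75 for YOL014W, 1.61 for DIA1, 1.54 for ADE2, 1.44 for SER3, 1.40 for DHR2, 1.35 for ECM1, 1.32 for CMK2 and 1.31 for TDA6. The negative ones were -3.31 for YNL134C, -3.04 for GTT2, -2.69 for YGP1, -2.59 for HIS3, -2.46 for APE1, -2.43 for YOR203W, -2.28 for HXK1, -2.15 for GAL11 and -1.96 for YML131W.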

How the results depend on the processing

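The count of 3928 ORFs called between dot4 null and DOT4-6Myc lay between 2749, with the null sets alone, and 4136 over the alternatives run, and between 3250 and 4136 when a set was left out. The difference from dot4-1 was the least stable. Its 608 ORFs became 37 with arrays scaled to a common spread, 339 in the first dye order alone and 242 with no centring, and lay between 373 and 1130 when a set was left out, with 447 without set 1, 373 without set 2 and 1130 without set 3. With strain names exchanged on the null arrays only, a setting chosen after seeing the data, it was 4835. The 2941 ORFs against dot4-5 became 1920 when scaled. With no centring the share of higher calls against untagged DOT4 was 69.6%, against 50.5% as reported. With the replicate block the 4 counts were 3985, 656, 3030 and 3501, and 865 for the dot4-1 difference with only dot4 null and dot4-1 fitted, also chosen after seeing the data, and the block ended no call among the 379 named genes. The SD of the dye component over ORFs, 0.154, was 0.106 when scaled and 0.155 to 0.157 when a set was left out, beside an SD of the strain effect of 0.318.

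In the first dye order alone the sign was turned for COS12 (1.07), NDE2 (0.36), FUR4 (0.24), HHT2 (-0.0355), MF(ALPHA)2 (0.0155), MATALPHA1 (0.46), DSE2 (-0.0665), SUN4 (-0.0048), MCH2 (0.50), YHR125W (0.82), YLR365W (0.83), YGR273C (1.01) and YMR082C (0.61). In the second order alone it was turned for RPS22A (0.054), URA2 (0.0097), HTA1 (0.20), HTA2 (0.28), HTB1 (0.23), HTB2 (0.15) and SPS1 (-0.45). RRN5 lay between -0.14 and 0.091 when a set was left out. Among the 379 named genes 27 calls were lost when scaled, 30 with the null sets alone, 26 and 28 in the first and second dye orders, 10 with no centring, and 21, 16 and 19 without set 1, 2 and 3. Genes whose sign turned are left out of these counts, also where their call was lost. The cause of these changes was not tested. Spot intensities were not used here, so dim spots could not be set apart.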

Other observations

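Proteasome genes, which no comparison above describes against the control, had 9 of 37 called higher and 9 lower in dot4 null (median -0.02). These shares lie below those of all ORFs, 30.7% higher and 32.7% lower. In the first dye order 5 were higher and 11 lower, where 33.3% of all ORFs were higher and 32.7% lower. In the second 12 were higher and 3 lower, where 28.4% of all ORFs were higher and 28.3% lower. RPT1, an ATPase of the regulatory particle, was at 0.42 ± 0.22 and UBA1, the ubiquitin-activating enzyme gene, at -0.32 (limma adjusted p = 0.00182 and 3.19e-05). Of 14 genes of flocculation and filamentous growth, 8 were higher and 3 lower (median 0.14). FLO11, the adhesin gene of filamentous growth, was at 0.93, 0.25 and 0.47 in sets 1, 2 and 3 and at 0.36 without set 1.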
